A study of Mus musculus with 8 samples.

Results

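The water channels, ion channels, cotransporters and sodium pump subunit considered here move salt and water across epithelia, and their mRNA was compared between the wild-type and Cox-1 KO mouse uterus at gestational day 18. The members were chosen by gene symbol, as every probe set that the platform annotation assigns to Aqp1, Aqp3, Aqp4, Aqp5, Aqp8, Cftr, Clca1, Slc12a2, Scnn1a or Atp1b1 alone. The annotation gave 17 probe sets for 8 of these 10 genes, out of 28000 probe sets in the deposited table. It gave none for Aqp4 or Scnn1a, which are not analysed here.

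RNA came from the gravid uterus of 4 wild-type mice of strain C57BL/6 and 4 Cox-1 KO mice of C57BL/6 x Sv129 background, all female and, per the labels, 6 to 16 weeks old. Cox-1 KO mice lack Ptgs1, the gene of cyclooxygenase-1, and the labels give no treatment. The methods call the second parent strain 129P2, and in either naming strain background and the deleted gene changed together and cannot be told apart. Fetuses, fetal membranes and placentas had been removed, part of each uterus went to frozen sections, and the RNA of a single mouse was hybridized to each Affymetrix 430 2.0 array. The measure is the signal of a probe set, a scaled brightness computed by the MAS5 software, and changes are given as log2 of Cox-1 KO over wild-type.

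In a secreting epithelium, Cftr and other chloride channels let chloride out across the apical membrane, the cotransporter Slc12a2 loads it from the blood side, and the sodium pump, of which Atp1b1 is the beta subunit, sustains the gradients. In an absorbing epithelium the sodium channel takes up sodium and water follows. Aquaporins let water cross the membrane, and the balance of both directions sets the volume of uterine luminal fluid.

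Ptgs1 was first checked, through the probe set that the additional file of the study pairs with it. Its signals were 7048, 10610, 10756 and 10508 in wild-type and 88, 122, 76 and 136 in Cox-1 KO uterus, which follows the labels. Median signals of the 8 arrays lay between 731 and 757, and pairs of arrays correlated at 0.943 to 0.976. Smooth muscle markers, 8 of 8 measured, summed to 217062 to 243213 in wild-type and 225422 to 247959 in Cox-1 KO uterus, and epithelial markers, 13 of 14 measured, to 124550 to 156307 and 149159 to 182778, with none at 0. The mean log2 signal was higher in Cox-1 KO for 11 epithelial markers and lower for 2, and higher for 2 smooth muscle markers and lower for 6. The arrays also differed in genes of yolk sac and fetal liver. Apoa1, an apolipoprotein made by both, had signals of 183, 481, 505 and 55059 on wild-type replicates 1 to 4 and of 73950, 631, 65189 and 56615 on Cox-1 KO replicates 1 to 4. All 17 measured genes of the yolk sac and fetal liver list had a higher mean in Cox-1 KO, and the list summed to 30867 to 323183 in wild-type and 41179 to 499778 in Cox-1 KO uterus. Rbp4 of this list was high on every array, with 26827 to 32440 in wild-type and 34145 to 39535 in Cox-1 KO uterus. It made up most of the sum on the arrays low in Apoa1. None of these 17 genes had an adjusted p under 0.05.

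No member passed the test across all probe sets. The linear models of limma covered 14 of the 17 member probe sets, those that reached a signal of 100 on no fewer than 4 arrays, among 26444 probe sets tested. Adjusted p-values of the 14 lay between 0.503 and 0.801, and over all probe sets 3, or 0.0113%, had an adjusted p under 0.05. At an unadjusted p under 0.05, limma gave 7 of the 14, 4 lower and 3 higher in Cox-1 KO, where the same threshold gave 8.81% of all tested probe sets, 5.12% lower and 3.69% higher. The 7 come from 5 genes. Aqp8, Aqp5 and Slc12a2, with 2 of its probe sets, were lower, and Aqp3 and Atp1b1, again with 2 probe sets, were higher. The median log2 fold change was -0.15 over the 14 and -0.03 over all tested probe sets. A value below 0 was seen for 8 of the 14 and for 57.5% of all tested probe sets. Probe sets of 1 gene are not independent of each other. In RNA of whole tissue, fewer cells of a type and less RNA per cell cannot be told apart.

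**Figure D1:**
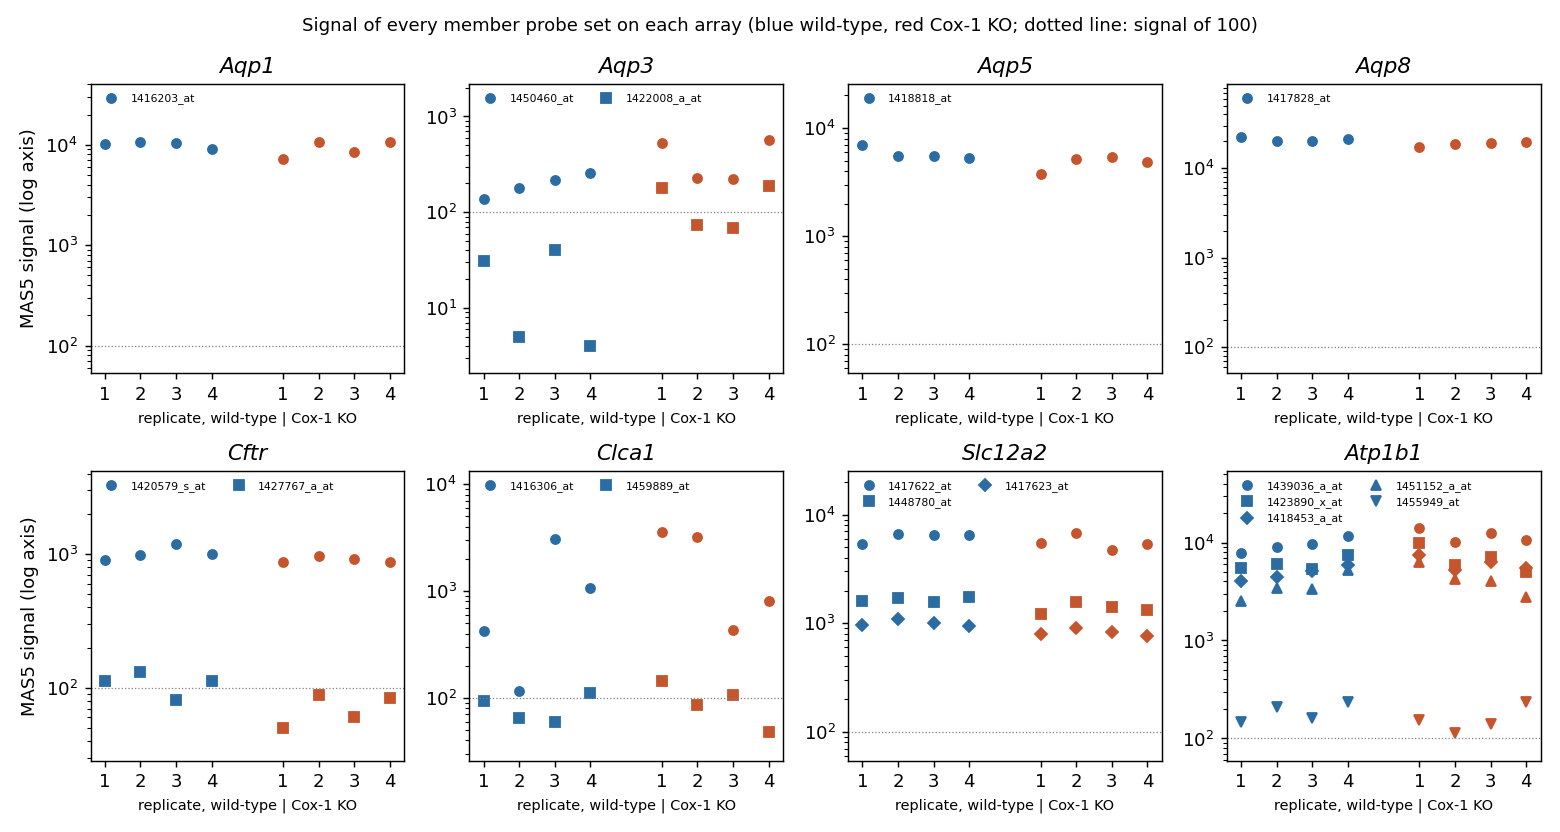
Signal of all 17 member probe sets (vertical axes, log scale, MAS5 signal) on the arrays of wild-type (blue) and Cox-1 KO (red) replicates 1 to 4, 1 panel for each gene and 1 symbol for each probe set, with a dotted line at a signal of 100. Aqp8 and 2 probe sets of Slc12a2 are lower on each Cox-1 KO array than on any wild-type array. The brighter probe set of Clca1 (1416306_at) ranges from 115 to 3580 with both genotypes mixed.

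Promoters are shown for Aqp8, the member with the smallest p, Aqp3, the member with the largest difference at an unadjusted p under 0.05, and Cftr, whose probe sets are compared further on. RefSeq promoter windows of build GRCm38.p6 were matched for 6 of the 10 members, and none was used here for the others. Each runs from 250 bases before to 50 bases after the start of the transcript, 5′ to 3′ on the strand of the gene. Capitals mark matches on either strand to the short motifs of the estrogen (GGTCA) and progesterone (AGAACA) response elements, the Ets core (CCGGAA), the GC box (GGGCGG) and the TATA box (TATAAA). These are found in 40.5%, 19%, 14.9%, 35.7% and 13.6% of 32851 promoter windows of the same length. The windows lie at chr7:123462044-123462343 on the plus strand for Aqp8, at chr4:41098134-41098433 on the minus strand for Aqp3 and at chr6:18170437-18170736 on the plus strand for Cftr.
Aqp8: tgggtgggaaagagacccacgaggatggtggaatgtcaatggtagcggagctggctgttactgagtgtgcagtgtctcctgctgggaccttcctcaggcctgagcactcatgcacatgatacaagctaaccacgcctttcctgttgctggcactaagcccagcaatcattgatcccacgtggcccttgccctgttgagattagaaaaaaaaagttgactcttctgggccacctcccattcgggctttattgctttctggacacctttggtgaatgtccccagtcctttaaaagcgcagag
Aqp3: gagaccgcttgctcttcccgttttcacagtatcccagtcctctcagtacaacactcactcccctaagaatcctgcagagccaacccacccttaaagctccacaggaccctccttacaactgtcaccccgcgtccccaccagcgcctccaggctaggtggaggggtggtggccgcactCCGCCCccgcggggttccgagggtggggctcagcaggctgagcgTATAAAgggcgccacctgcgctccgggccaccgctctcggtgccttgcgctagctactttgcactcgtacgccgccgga
Cftr: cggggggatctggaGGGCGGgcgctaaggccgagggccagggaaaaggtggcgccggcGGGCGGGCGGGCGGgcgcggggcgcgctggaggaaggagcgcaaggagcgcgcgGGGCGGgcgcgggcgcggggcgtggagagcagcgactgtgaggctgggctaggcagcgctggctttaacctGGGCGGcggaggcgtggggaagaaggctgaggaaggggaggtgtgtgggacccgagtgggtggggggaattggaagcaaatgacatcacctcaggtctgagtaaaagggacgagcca
The window of Aqp8 held none of these letters and was 52% G and C. The Aqp3 window was 64% G and C, with a TATA box at position -29 from the start and a GC box on the opposite strand at -73. The Cftr window was 71.3% G and C, with 6 matches to the GC box, of which those starting at positions -192, -188 and -184 from the start overlap. A match describes the letters and is not a bound site. None of the 3 windows held the letters searched for the steroid response motifs or the Ets site, and other forms of these motifs were not searched. For Cftr the study lists putative estrogen, progesterone and Ets sites, from a different search for sites conserved in mouse and human.

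Among the water channels, Aqp8 was the member with the smallest p. Aqp8 is a channel for water and for ammonia and hydrogen peroxide. Its signals were 22518, 20328, 20222 and 21064 in wild-type and 17450, 18651, 19085 and 19592 in Cox-1 KO uterus. All Cox-1 KO arrays lay below all wild-type arrays, with means of 21033 ± 1058 and 18695 ± 914 (SD, n = 4 each). This was a log2 fold change of -0.17 with a 95% confidence interval of -0.29 to -0.05, by limma with adjusted p = 0.503. The exact two-sided permutation test gave p = 0.0286, the smallest that 4 arrays against 4 allow. Groups did not overlap, in the lower direction, for 3 of the 14 tested member probe sets, of Aqp8 and Slc12a2, and for 2.91% of all tested probe sets, or 4.41% in either direction.

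Aqp5, a water channel of the apical membrane of secretory glands, had signals of 6938, 5466, 5517 and 5254 in wild-type and 3733, 5214, 5395 and 4903 in Cox-1 KO uterus. The groups overlapped, as Cox-1 KO replicate 3 lay above wild-type replicate 4, and the extremes were wild-type replicate 1 and Cox-1 KO replicate 1. The log2 fold change was -0.27 (95% confidence interval -0.54 to -0.01, adjusted p = 0.561 by limma). Aqp1, the water channel of endothelium and many epithelia, had signals of 10220, 10725, 10451 and 9008 in wild-type and 7282, 10641, 8480 and 10616 in Cox-1 KO uterus. Replicates 1 and 3 of Cox-1 KO were below all wild-type arrays and replicates 2 and 4 among them. Its log2 fold change was -0.14, with an interval of -0.40 to 0.11 that holds 0. Endothelial markers, 8 of 8 measured, summed to 15393 to 17024 in wild-type and 15002 to 16680 in Cox-1 KO uterus. Of these, 6 had a lower and 2 a higher mean log2 signal in Cox-1 KO, and 0 had an adjusted p under 0.05 by limma. Their part in the Aqp1 difference was not tested.

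Aqp3, which passes glycerol as well as water and sits in the basolateral membrane of epithelia and in the basal layers of squamous epithelium, was the water channel with higher signals in Cox-1 KO uterus. Its brighter probe set (1450460_at) gave 136, 178, 216 and 255 in wild-type and 530, 227, 223 and 573 in Cox-1 KO uterus. Cox-1 KO replicates 1 and 4 were far above the rest, and replicates 2 and 3 lay between the signals of wild-type replicates 3 and 4. The means were 196 ± 51.0 and 388 ± 189 (SD, n = 4 each). On the log2 scale Aqp3 differed by 0.88, with a 95% confidence interval of 0.13 to 1.63, by limma with adjusted p = 0.538, and the exact permutation test gave p = 0.114.

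The other probe set of Aqp3 (1422008_a_at) had signals of 31, 5, 40 and 4 in wild-type and 179, 73, 68 and 187 in Cox-1 KO uterus. The groups did not overlap, which held for 4 of the 17 member probe sets and for 4.35% of all probe sets without the filter, and the same 2 Cox-1 KO arrays were the highest. Only those 2 arrays reached 100, so this probe set was not part of the test. Without the filter its log2 fold change was 3.18 with a standard error of 0.853 (adjusted p = 0.426 by limma). Its size rests on very low wild-type signals, and with signals under 100 set to 100 it was 0.44, or 1.35-fold. The table holds no detection calls to say which of these signals exceed background.

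Signals of squamous epithelial genes had a similar distribution over the arrays. The list of keratins, Trp63, Dsc3 and Sprr1a, 8 of 11 measured, summed to 1214, 1163, 4677 and 2340 on wild-type replicates 1 to 4 and to 6615, 4466, 2953 and 7049 on Cox-1 KO replicates 1 to 4. All 8 had a higher mean in Cox-1 KO, none with an adjusted p under 0.05 and none at 0 on any array. The 2 arrays with the highest sums were the 2 with the highest Aqp3 signals, whereas wild-type replicate 3, with an Aqp3 signal of 216, had a higher sum than Cox-1 KO replicates 2 and 3, with 227 and 223. Their part in the Aqp3 difference was not tested. Over the 8 arrays, the genes with the pattern most like that of Aqp3 were Adgrl2, an adhesion receptor (Pearson r = 0.948), Wipi1, an autophagy protein (0.947), and Tbl1xr1, a corepressor subunit (0.945). These correlations describe 8 arrays that also share their content of other cell types, and 45 of 22627 probe sets reached 0.9 with Aqp3.

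Of the chloride channel genes, Cftr encodes the cAMP-regulated anion channel of apical membranes. Its brighter probe set (1420579_s_at) had signals of 901, 986, 1190 and 995 in wild-type and 869, 961, 918 and 868 in Cox-1 KO uterus. The groups overlapped. The log2 fold change was -0.17 with a 95% confidence interval of -0.39 to 0.06 and an adjusted p of 0.654 by limma.

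The other Cftr probe set (1427767_a_at) had signals of 112, 131, 81 and 113 in wild-type and 50, 89, 60 and 84 in Cox-1 KO uterus. Wild-type replicate 3 lay below 2 of the Cox-1 KO arrays, and every Cox-1 KO signal was under 100. It reached 100 on 3 arrays and was not tested. Without the filter its log2 fold change was -0.65 with a standard error of 0.324 (adjusted p = 0.601 by limma), against -0.18 with signals under 100 set to 100. The exact permutation test gave p = 0.0857. The intervals of both Cftr probe sets include 0, and their estimates share a direction.

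The thresholds of the study's methods, an unadjusted p up to 0.05 together with a difference of means of at least 1.5-fold, were met by 0 of the 14 tested member probe sets and by 0.862% of all tested probe sets. Without the filter they were met by 2 of the 17, the dimmer probe sets of Aqp3 and Cftr, and by 1.02% of 27940 probe sets. The methods also required present calls, which the deposited table does not hold, so the count without the filter does not apply all of their criteria. The study used these thresholds on the same arrays, so this count is not independent of its own gene list. That list holds Cftr as lower in Cox-1 KO. The study reports that in situ hybridization of Cftr qualitatively matched its arrays, without showing the data. For both genes the brighter probe set did not meet them.

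Clca1, a protein secreted by mucous cells that raises the chloride current of neighbouring channels, had the widest range of the tested member probe sets. Its brighter probe set (1416306_at) had signals of 426, 115, 3101 and 1080 in wild-type and 3580, 3229, 429 and 800 in Cox-1 KO uterus. Wild-type replicate 3 and Cox-1 KO replicates 1 and 2 were the 3 high arrays, and both groups held arrays of 429 or less. The highest signal was 31.1 times the lowest, and 0.473% of all tested probe sets had a range as large. The log2 fold change of 1.15 had a 95% confidence interval of -0.91 to 3.21 (adjusted p = 0.742 by limma). It was 0.33 without wild-type replicate 2. The other probe set (1459889_at) had signals of 93, 65, 59 and 111 in wild-type and 143, 86, 107 and 48 in Cox-1 KO uterus and was not tested. The patterns most like that of Clca1 over the 8 arrays were those of Acly, the enzyme that makes cytosolic acetyl-CoA (Pearson r = 0.953), Tff1, a trefoil peptide of mucous cells (0.950), and Atp13a3, a polyamine transporter (0.949), and 14 of 22627 probe sets reached 0.9.

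Slc12a2, the sodium, potassium and chloride cotransporter that loads chloride into secreting cells, had lower estimates with all 3 of its probe sets. For 1448780_at the signals were 1597, 1718, 1581 and 1746 in wild-type and 1213, 1555, 1418 and 1320 in Cox-1 KO uterus. For 1417623_at they were 970, 1101, 998 and 934 in wild-type and 802, 897, 836 and 758 in Cox-1 KO uterus. With either probe set the Cox-1 KO signals did not reach the lowest wild-type signal. The log2 fold changes were -0.28 (95% confidence interval -0.47 to -0.08, adjusted p = 0.518 by limma) and -0.28 (-0.49 to -0.08, adjusted p = 0.522). The exact permutation test gave p = 0.0286 for both.

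The brightest probe set of Slc12a2 (1417622_at) did not separate the groups. It gave 5317, 6701, 6540 and 6460 in wild-type and 5450, 6806, 4761 and 5335 in Cox-1 KO uterus. Wild-type replicate 1 was among the low arrays and Cox-1 KO replicate 2 was the highest of all. Its difference was -0.17 on the log2 scale with an interval of -0.41 to 0.07 (adjusted p = 0.668 by limma). The 3 probe sets carry the same accession in the annotation and therefore do not measure separate genes.

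Atp1b1, the subunit that brings the sodium pump to the membrane, had higher estimates in Cox-1 KO uterus with 4 of its 5 probe sets. The brightest (1439036_a_at) gave 7872, 8973, 9697 and 11543 in wild-type and 14045, 10053, 12573 and 10511 in Cox-1 KO uterus. Wild-type replicate 4 was above 2 of the Cox-1 KO arrays, and the groups overlapped. Probe set 1418453_a_at gave 4027, 4477, 5115 and 5929 in wild-type and 7416, 5260, 6323 and 5537 in Cox-1 KO uterus. It ranked the 8 arrays in the same order. The log2 fold changes of the pair were 0.31 (95% confidence interval 0.03 to 0.59, adjusted p = 0.541 by limma) and 0.33 (0.04 to 0.62, adjusted p = 0.538). For each of the pair the exact permutation test gave p = 0.114. Of the other probe sets, 1423890_x_at, whose suffix marks probes that can match other transcripts, ran from 5386 to 7376 in wild-type and from 5023 to 9868 in Cox-1 KO uterus, with a log2 fold change of 0.17. Probe set 1451152_a_at ran from 2504 to 5255 and from 2802 to 6275, with 0.25. Probe set 1455949_at, with signals of 113 to 237, had -0.26. The intervals of these 3 include 0, with adjusted p-values of 0.786 to 0.801.

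Of the 14 tested member probe sets, these 2 of Atp1b1 were higher on each of the 4 arrays with an Apoa1 signal above 10000, wild-type replicate 4 and Cox-1 KO replicates 1, 3 and 4, than on any of the other 4 arrays, which held for 4.11% of all tested probe sets. With the brightest probe set the signals of the former were 11543, 14045, 12573 and 10511 and those of the latter 7872, 8973, 9697 and 10053. With the mean log2 signal of the yolk sac and fetal liver list as a covariate, its log2 fold change was 0.09 (95% confidence interval -0.13 to 0.32), and that of probe set 1418453_a_at was 0.12. The same covariate gave 0.46 for the brighter probe set of Aqp3, -0.15 for Aqp5, 0.02 for Aqp1 and -0.13 for the brighter probe set of Cftr. The dimmer Aqp3 probe set, not tested and at signals of 4 to 187, did not shrink. It went from 3.18 to 3.57 with the covariate, so the 2 probe sets of Aqp3 moved in opposite directions. Aqp8 had -0.17 with and without it. For Slc12a2 the covariate gave -0.23 with 1448780_at, -0.20 with 1417623_at and -0.08 with 1417622_at. The dimmest Atp1b1 probe set, 1455949_at, went from -0.26 to -0.56. With this covariate 1 of the 14 member probe sets, that of Aqp8, had an unadjusted p under 0.05 by limma, against 5.31% of all tested probe sets. The covariate overlaps with genotype, as 3 Cox-1 KO arrays and 1 wild-type array were high in Apoa1. This fit therefore cannot tell genotype from yolk sac content. What part transcripts of yolk sac cells have in the Atp1b1 and Aqp3 differences was not tested.

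**Figure D2:**
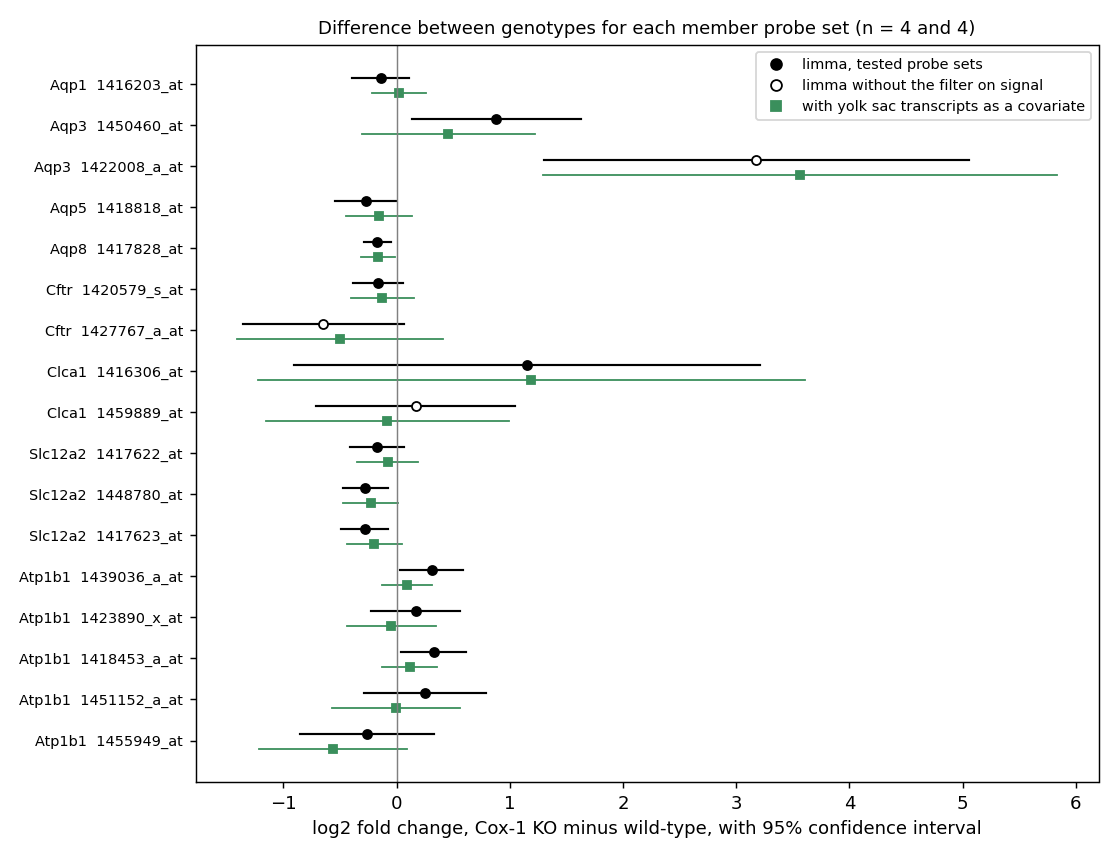
Log2 fold change of each member probe set (Cox-1 KO minus wild-type, n = 4 and 4) with its 95% confidence interval, from limma for tested probe sets (filled circles), from limma without the filter on signal (open circles) and after adding the yolk sac list as a covariate (green squares). With the covariate the value of Atp1b1 1439036_a_at moves from 0.31 to 0.09, whereas that of Aqp8 stays at -0.17.

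**Figure D3:**
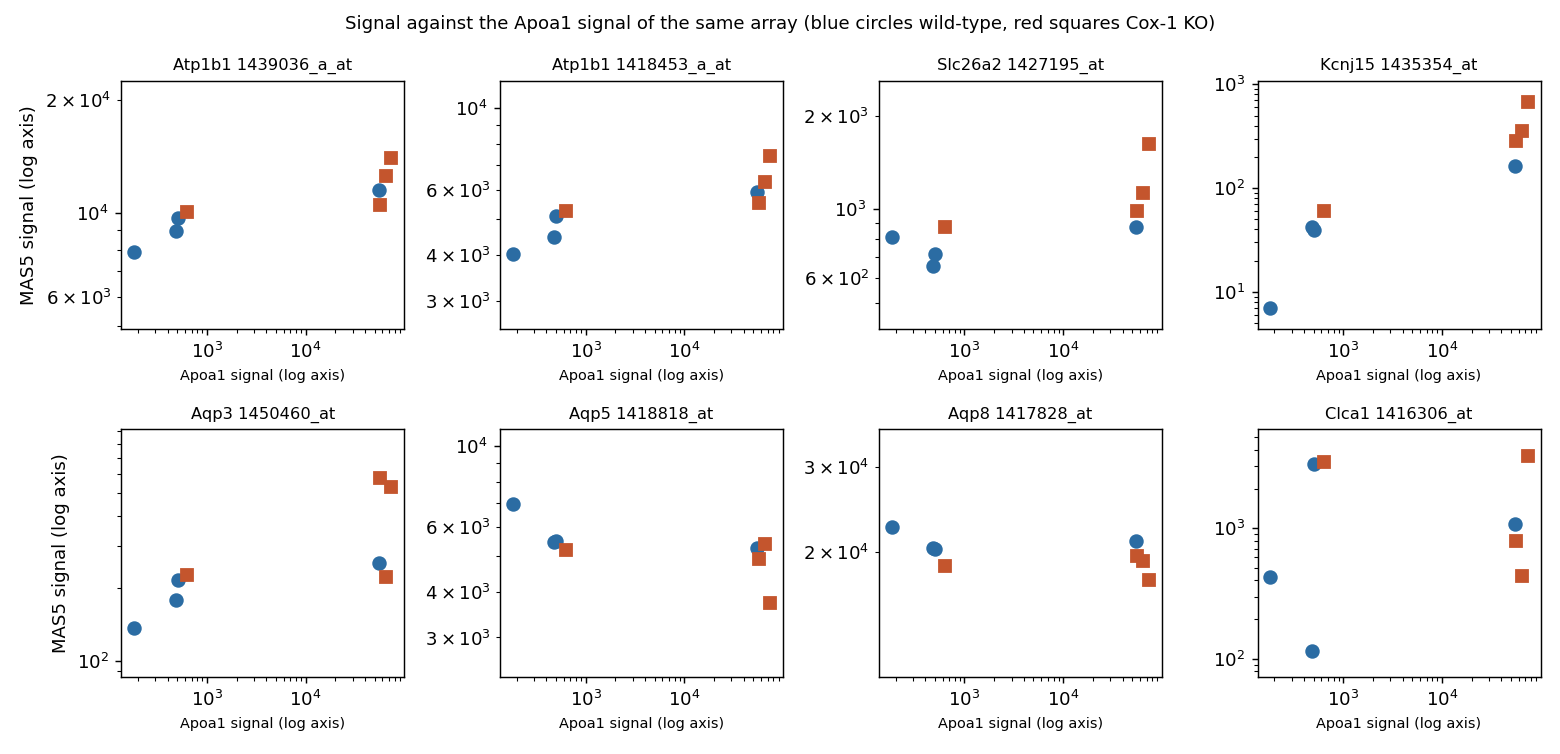
MAS5 signal of 6 member probe sets and of Slc26a2 and Kcnj15 (vertical axes, log scale) against the Apoa1 signal of the same array (horizontal axes, log scale), with wild-type arrays as blue circles and Cox-1 KO arrays as red squares. Both Atp1b1 probe sets, Slc26a2 and Kcnj15 are higher on each of the 4 arrays at the right than on any of the 4 at the left, whereas Clca1 signals are spread over both sides.

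The other genes of epithelial fluid transport were taken from lists by role. Of 125 listed genes 87 had a probe set and 83 were tested, each by its brightest tested probe set, and none had an adjusted p under 0.05, the smallest being 0.266 by limma. With an unadjusted p under 0.05 came 10 higher and 2 lower genes, or 14.5% of the 83, beside 8.81% of all tested probe sets. With the yolk sac covariate these were 3 higher and 2 lower of the 83, beside 5.31% of all tested probe sets. The 10 higher genes include Kcnj15, which reached a signal of 100 on 1 wild-type and 3 Cox-1 KO arrays. The median log2 fold change of the 83 was 0.04, with 50 genes above 0 and 33 below, beside 57.5% of all tested probe sets below 0. Groups were apart for 3 higher and 1 lower of the 83, beside 1.5% and 2.91% of all tested probe sets.

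Of 11 tested partners of the epithelial sodium channel none had an unadjusted p under 0.05, and log2 fold changes ran from -0.15 to 0.12. Scnn1b, the beta subunit of the channel, had signals of 1976, 2119, 2083 and 1796 in wild-type and 1663, 2360, 1940 and 2001 in Cox-1 KO uterus. The groups overlapped fully, and the log2 fold change of -0.01 had an interval of -0.24 to 0.22. Scnn1g, the gamma subunit, had -0.15 (-0.71 to 0.41), at signals of 120 to 214. Sgk1, the kinase that keeps the channel at the membrane, had 0.08 (-0.06 to 0.23). In 1 gene of this list, Spint2, a protease inhibitor named here after its values were seen, the groups were apart, with signals of 18518 to 18983 in wild-type and 17437 to 18357 in Cox-1 KO uterus. Spint2 differed by -0.07 on the log2 scale (adjusted p = 0.643 by limma).

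Sodium pump partners had lower estimates for 6 of 8 tested genes, beside 57.5% of all tested probe sets. The largest difference was upward, in Fxyd2, the gamma subunit of the kidney pump, which is named here after its values were seen. It had signals of 366, 288, 429 and 929 in wild-type and 1432, 423, 1109 and 1078 in Cox-1 KO uterus. The 4 arrays with 929 or more were the 4 with an Apoa1 signal above 10000, and its log2 fold change of 1.03 (adjusted p = 0.538 by limma) became 0.16 with the yolk sac covariate. Fxyd1, a regulator of the pump abundant in muscle, had signals of 9332, 11057, 9921 and 9686 in wild-type and 8457, 9551, 9089 and 8448 in Cox-1 KO uterus. Wild-type replicate 1 lay below Cox-1 KO replicate 2, and all other wild-type arrays were above all Cox-1 KO arrays. The log2 fold change was -0.17 (adjusted p = 0.538 by limma). Fxyd4, a pump regulator of the kidney collecting duct, had -0.18, Fxyd3 had -0.05 and Atp1b2, the beta subunit of glia, had -0.46 at signals of 155 to 366, each with an interval that includes 0. With the covariate Atp1b2 had -0.76, with an interval of -1.34 to -0.19 and an adjusted p of 0.78 by limma. Among cation-chloride cotransporters and their kinases 1 of 11 tested genes, or 9.09%, had an unadjusted p under 0.05 by limma, beside 8.81% of all tested probe sets. Slc12a4, a potassium and chloride cotransporter, had a log2 fold change of -0.02 (-0.25 to 0.21).

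Chloride and anion channels and exchangers had higher estimates for 18 of 24 tested genes and lower ones for 6, beside 57.5% of all tested probe sets lower. Their median difference on the log2 scale was 0.14, and values ran from -0.33 to 1.81, both in genes not named here. With an unadjusted p under 0.05 by limma came 5 higher and 0 lower, or 20.8%, beside 8.81% of all tested probe sets. Lrrc8a, the essential subunit of the volume-regulated anion channel, had the smallest p of the lists. Its signals were 2211, 2563, 2496 and 2495 in wild-type and 3371, 2833, 3218 and 3030 in Cox-1 KO uterus. All Cox-1 KO arrays were above all wild-type arrays. Lrrc8a had a log2 fold change of 0.35 (95% confidence interval 0.18 to 0.52, adjusted p = 0.266 by limma), and 0.28 with the yolk sac covariate. Clcn7, a chloride and proton exchanger of lysosomes, had 0.19 with groups apart, whereas 1 of its dimmer probe sets, 1450408_at, had 0.16 with groups that overlapped.

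Ano1, the calcium-activated chloride channel, had signals of 1968, 3042, 2616 and 2681 in wild-type and 3774, 3724, 3181 and 2535 in Cox-1 KO uterus. Cox-1 KO replicate 4 lay among the wild-type arrays and the other 3 above them. Its log2 fold change was 0.36 (95% confidence interval 0.03 to 0.69, adjusted p = 0.549 by limma), and its other probe set 1426571_at had 0.50. Slc26a2, a sulfate transporter, had 0.55 (adjusted p = 0.505 by limma), which became 0.31 with the covariate. Its signals were 879 to 1615 on the 4 arrays with an Apoa1 signal above 10000 and 658 to 873 on the other 4. Of its other probe sets, 1421145_at had 0.63 with groups apart and 1443882_at had 0.16 with groups that overlapped. Slc26a4, an exchanger of chloride, iodide and bicarbonate, had -0.13 and Clcn2, a chloride channel of epithelia, had -0.21, with intervals that include 0. Acid-base transporters and scaffolds of Cftr had no gene with an unadjusted p under 0.05 among 21 tested.

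Of 8 tested potassium channel genes of epithelia 3 were higher and 1 lower at an unadjusted p under 0.05 by limma, beside 3.69% and 5.12% of all tested probe sets. The 3 higher include Kcnj15, which passed the filter mainly through Cox-1 KO, with 3 of its 4 arrays at 100 or more. In 1 of the 8, not among those named here, the groups were apart and higher in Cox-1 KO. Kcnj15, an inward rectifier, had signals of 7, 42, 39 and 163 in wild-type and 672, 60, 354 and 283 in Cox-1 KO uterus. The 4 arrays with 163 or more were the 4 with an Apoa1 signal above 10000, and 3 of the wild-type signals were under 100. The log2 fold change was 2.77, or 1.34 with signals under 100 set to 100, and the covariate took it from 2.77 to 1.05. Its other probe set, 1443054_at, was not tested and had 0.57, or 0.25 with the same floor. Kcnj16, its relative, had 0.64 at signals of 126 to 296 (adjusted p = 0.530 by limma) and 0.62 with the covariate. Kcne2, an accessory subunit of Kcnq1, had signals of 8037, 9033, 10090 and 9842 in wild-type and 6011, 7290, 9487 and 7691 in Cox-1 KO uterus. Cox-1 KO replicate 3 lay within the wild-type range and the other 3 below it. Kcne2 differed by -0.29 on the log2 scale (95% confidence interval -0.56 to -0.02, adjusted p = 0.547 by limma) and -0.34 with the covariate.

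**Figure D4:**
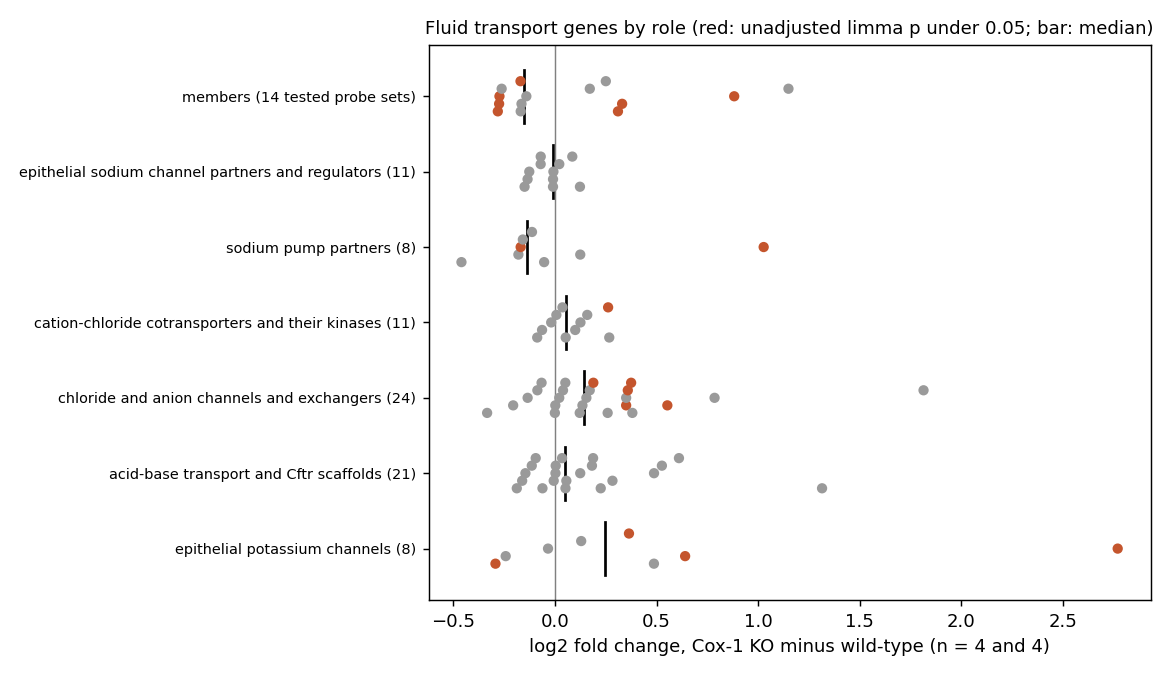
Log2 fold change (Cox-1 KO minus wild-type, n = 4 and 4) of the 14 tested member probe sets and of the 83 tested genes of the other lists, 1 row for each role with its number of genes, where red points have an unadjusted limma p under 0.05 and black bars are medians. The members have a median of -0.15, the chloride and anion channels and exchangers one of 0.14, and points lie on both sides of 0 in each row.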

How the data were processed

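The data are 8 Affymetrix 430 2.0 arrays of gravid uterus at day 18, 4 of each genotype, grouped by the sample labels. The authors computed the intensity of each probe set with MAS5 and scaled every array to a common target. The deposited values are these signals on a linear scale, in whole numbers, without detection calls. How the 28000 probe sets were chosen from the array is not given in the sources used here. The number of arrays limits the precision.

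Before taking log2, 1 value below 1 was raised to 1, and no constant was added. The 60 array controls and probe sets under a signal of 100 on more than 4 arrays were left out. Genotypes were compared with limma 3.58.1 in R 4.3.3, with a variance trend on mean signal, Benjamini-Hochberg adjustment over all tested probe sets and a threshold of 0.05. Exact permutation tests are two-sided over all 70 assignments of the 8 arrays. The methods' t-test used unequal variances on log2 signal. The script was tested on simulated data. Figures and motif searches used Python 3.11.15. Symbols came from the platform annotation, with 23579 probe sets of 1 symbol, 653 of several and 3768 of none. The last are unnamed here, Ptgs1 among them, which was named through the additional file of the study. The authors' own fold changes and p-values in that file were not used.

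Members, gene lists and alternatives were chosen with earlier results of these data known. Named are all members, and of the other lists the 5 genes with the smallest p in each direction, those past the adjusted threshold and fixed direct partners. Beside the lists in the text, markers of fetal erythroid cells (4 of 8 measured), trophoblast (5 of 11) and adipocytes (4 of 7) were summed. Their sums were 529 to 1313, 8459 to 30084 and 6984 to 14798 in wild-type and 874 to 3347, 19833 to 26066 and 10791 to 21963 in Cox-1 KO uterus.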

Additional observations from a re-analysis of the deposited data

Results flagged for a closer look

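Of 68 groups of 4 arrays, 2 held an array whose distance from the others exceeded the 95% critical value of Dixon's test, where chance gives about 1 in 20. For Slc12a2 (1417622_at) wild-type replicate 1 had a signal of 5317, and the other wild-type arrays had 6460 to 6701. For Scnn1g (1419079_at), the gamma subunit of the epithelial sodium channel, wild-type replicate 1 had a signal of 130, and the others had 206 to 213. Wild-type replicate 1 was also the lowest wild-type array for both Atp1b1 probe sets with an unadjusted p under 0.05.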

How the results depend on the processing

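No member probe set and no gene of the other fluid transport lists had an adjusted p under 0.05 under any alternative run, and the smallest adjusted p of a member was 0.178, for Slc12a2 (1448780_at) without Cox-1 KO replicate 2. Over all probe sets the count of 3 became 18 with array weights, 12 with a floor at 100, 11 after centring on medians and 10 after adding 32 before the log. It became 6 with a robust fit and 2 to 25 when 1 array was left out, the highest without wild-type replicate 1. The run without the 4 arrays high in Apoa1 leaves wild-type replicates 1 to 3 and only Cox-1 KO replicate 2, so its effect sizes alone are given. The methods' thresholds gave 2 member probe sets without the filter on signal and 0 with it.

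Of 350 alternative values of the member probe sets 342 kept their direction. The other 8 were Aqp1 at 0.024 with the yolk sac covariate and 0.024 without the 4 arrays high in Apoa1, Slc12a2 (1417622_at) at 0.15 without those arrays, Atp1b1 (1423890_x_at) at -0.045 with the covariate and -0.011 without Cox-1 KO replicate 1, Atp1b1 (1451152_a_at) at -0.0053 with the covariate, and Clca1 (1459889_at) at -0.080 with the covariate and -0.059 without Cox-1 KO replicate 1. With 1 array left out, these last probe sets ran from -0.011 to 0.31 for Atp1b1 (1423890_x_at) and from -0.059 to 0.47 for Clca1. The cause was not tested. The 7 member probe sets with an unadjusted p under 0.05 by limma stood beside 8.81% of all tested probe sets. They became 3 without wild-type replicate 2 (6.87% of all) or Cox-1 KO replicate 1 (6.49%) and 8 without Cox-1 KO replicate 2 (11.6%). They became 4 without the trend (8.14%) and 1 with the covariate (5.31%). With the p-value of the methods' t-test in place of limma they became 3, with 0 higher and 3 lower (6.19%). The 3 higher ones of the main limma fit also became 0 without wild-type replicate 1, wild-type replicate 2 or Cox-1 KO replicate 1.

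Deviations of arrays with the same replicate number correlated at -0.254, 0.219, -0.181 and 0.165 for numbers 1 to 4. These values have no common sign but cannot exclude shared handling, and the labels do not state a pairing. With the replicate block 0 members had an adjusted p under 0.05 and 5 had an unadjusted p under 0.05, beside 7.91% of all tested probe sets.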
